A study of Mus musculus with 6 samples.

Results

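Clustered Nrf1 regions are places where the Nrf1 ChIP gave a reproducible peak with another reproducible peak close by. They were chosen by the positions of the authors' peak calls. Overlapping peaks of the 3 ChIP lists (1 bp or more) were joined into merged regions, and regions on chromosomes 1 to 19 with peaks from at least 2 lists were taken. Windows of 100 kb holding 10 or more such regions were dropped, and a region was a member when its centre lay within 10 kb of the centre of another kept region. Of 27511 merged regions, 7781 were kept, and 1140 of these were clustered, which is 14.7% of the kept regions (exact Clopper-Pearson 95% interval 13.9 to 15.5%). The other 6641 kept regions had no such neighbour and are called isolated here.

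The cells were mouse embryonic fibroblasts (MEFs) from wild-type embryos, immortalised with the large T antigen of SV40, a viral protein that keeps cells dividing. MG132, which blocks the proteasome, was given to all of them for 6 h at 10 μM. The 3 Nrf1 ChIP libraries and the 3 input DNA libraries came from 3 separate samplings of these cells, and neither untreated cells nor cells without Nrf1 are among those used here. The antibody was raised to TCF11, another name of Nrf1, and 1 peak list per ChIP library is used, while the input libraries are not analysed here. The lists held 23187, 12051 and 1492 peaks in replicates 1, 2 and 3. Peak lists carry no read totals, so the depth is unknown, and they hold no expression by which the fibroblast label could be checked.

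Nrf1 in this study is the product of the gene Nfe2l1, a membrane-anchored factor of the cap'n'collar (CNC) family. When proteasome activity falls, it escapes degradation at the endoplasmic reticulum, is processed and enters the nucleus, where it pairs with small Maf proteins and activates genes that include those of proteasome subunits. Regulatory DNA often carries several binding sites near each other, as between a promoter and a nearby enhancer, and a peak list shows such groups only as separate intervals. The gene table used here is of another genome build than the peaks, so genes and sequences at the regions were not analysed here and regions are named by mm9 position, counted from 1.

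The clustered regions formed 544 clusters, and most of these were pairs. A cluster is a chain of kept regions in which each centre lies within 10 kb of the next. There were 501 clusters of 2 regions (92.1%), 36 of 3, 5 of 4 and 2 of 5. The median span from the first to the last base of a cluster was 5632 bp, with a range of 822 to 34229 bp. The membership rested on replicates 1 and 2. With 1 list left out, a region needed a peak in both remaining lists. Then 65 regions in 29 clusters met the rule without replicate 1 and 62 in 28 clusters without replicate 2. Both counts are limited by replicate 3, the shortest list, and these regions overlapped only 53 and 56 of the 1140 members. Without replicate 3 the rule gave 1126 regions in 538 clusters.

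Neighbours within a cluster were spread over the whole permitted distance, with more of them near than far. The 596 neighbouring pairs had a median centre distance of 4784 bp (95% interval from order statistics 4250 to 5137 bp) and quartiles of 2408 and 7230 bp. The closest centres lay 529.5 bp apart and the narrowest edge gap was 181 bp. Only 1 pair had under 200 bp between its edges, 35 pairs (5.87%) had under 500 bp and 83 pairs (13.9%) had under 1000 bp. Consecutive kept regions numbered 70.0 pairs per kb of distance between 1000 and 5000 bp and 56.6 between 5000 and 10000 bp. Beyond the limit they numbered 44.3 per kb between 10000 and 20000 bp and 38.4 per kb between 20000 and 50000 bp. The first bin, under 1000 bp, held 33 pairs. Clustered regions had a median width of 462 bp, and why this bin held few pairs was not tested.

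**Figure D1:**
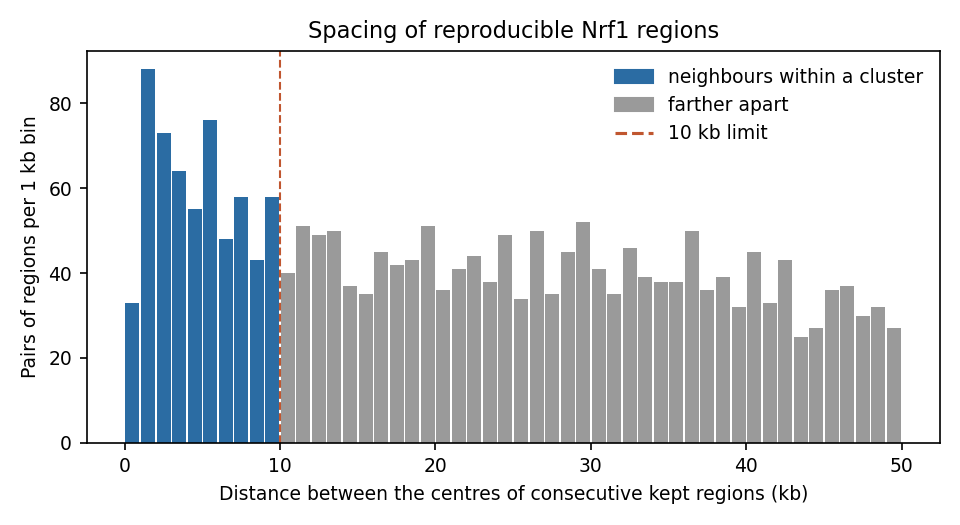
Number of pairs of consecutive kept regions (y axis) by the distance between their centres in 1 kb bins (x axis, kb); blue bars are neighbours within a cluster, grey bars are pairs farther apart and the dashed line is the 10 kb limit. The highest bin holds 88 pairs, between 1000 and 2000 bp. Counts vary from bin to bin about the limit, with 58 pairs in the last bin inside it, 40 in the first beyond it and 51 in the next.

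Regions on either side of the 10 kb limit had similar ranks. There were 106 regions whose nearest kept neighbour lay 9000 to 10000 bp away and 71 whose nearest lay 10000 to 11000 bp away. Their median percentile ranks were 83.2 just inside and 86.7 just outside in replicate 1, and 75.7 and 74.2 in replicate 2. A percentile rank is the place of a peak's score within its own list, where 100 is the strongest. Of those just inside, 9 (8.49%) had a peak in all 3 lists, and of those just outside, 14 (19.7%). For isolated regions the nearest kept region lay at a median of 70699 bp, with quartiles of 33147 and 157144 bp.

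The spacing of neighbours was measured alike in separate samplings. Where each list held 1 peak in both regions, the distance between the peak centres was taken in each list on its own. Between replicates 1 and 2 it differed by a median of 46.5 bp over 583 pairs, and 80.8% of the pairs differed by at most 100 bp. Between replicates 1 and 3 the median difference was 54.0 bp over 30 pairs, and between replicates 2 and 3 it was 30.5 bp over 27 pairs. The largest difference in any comparison was 436 bp, below the smallest centre distance. Peaks had to overlap to be merged, which limits these differences.

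Most members had a peak in replicates 1 and 2 and none in the short list of replicate 3. This held for 946 of the 1140 clustered regions (83.0%) and 5729 of the 6641 isolated ones (86.3%). A further 186 clustered regions had a peak in all 3 lists, which is 16.3% (exact 95% interval 14.2 to 18.6%), beside 13.3% (12.5 to 14.2%) of the isolated ones and 13.8% of all kept regions. Intervals on shares cover counting error only, and members of a cluster share their stretch of genome, so no test was made between the sets. The remaining clustered regions comprised 7 with peaks in replicates 1 and 3 and 1 with peaks in replicates 2 and 3.

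Clustered regions ranked slightly higher than isolated ones in each list. In replicate 1 the median percentile rank of a region's best peak was 83.8 for 1139 clustered regions and 81.0 for 6637 isolated ones. In replicate 2 it was 69.3 for 1133 and 66.5 for 6619, and in replicate 3 it was 65.7 for 194 and 61.1 for 912. The medians of clustered regions were thus higher in 3 of 3 lists, by 3.40 ± 0.98 percentile points (SD, n = 3), a small shift beside quartiles of 66.7 and 92.8 for the clustered regions of replicate 1. The peak calls chose the members, so this is a description without a test. The authors' scores, −log10 values, had medians of 29.0 against 25.0 in replicate 1, 15.1 against 13.9 in replicate 2 and 13.5 against 12.5 in replicate 3. The difference in percentile points was 1.88 when the dense windows were kept. It was 0.98 when only regions in all 3 lists entered, with a range of 1 SD from -0.69 to 2.66. Widths were close, with a median of 462 bp for clustered and 452 bp for isolated regions.

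**Figure D2:**
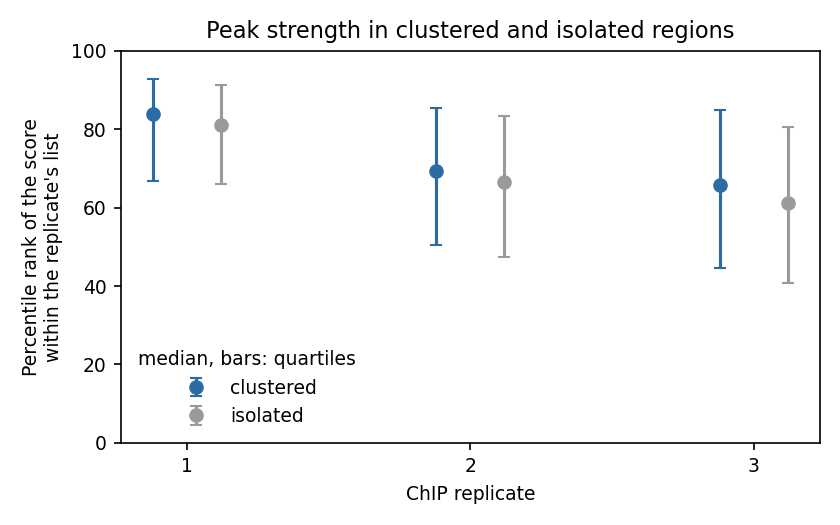
Percentile rank of the best peak of a region within its replicate's list (y axis) for clustered (blue) and isolated (grey) regions in each ChIP replicate (x axis); points are medians and bars run from the lower to the upper quartile. The blue median lies above the grey one in each replicate, by 2.80, 2.86 and 4.52 points, and the bars overlap almost fully.

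At the strong end of each list the share of clustered regions was also the higher one. Of the clustered regions with a peak in replicate 1, 384 of 1139 (33.7%) belonged to the strongest decile of that list, beside 28.3% of the isolated and 29.1% of all kept regions. In replicate 2 it was 203 of 1133 (17.9%), beside 15.1% and 15.5%, and in replicate 3 it was 36 of 194 (18.6%), beside 12.4% and 13.5%. The 100 kept regions with the best mean percentile rank among those in all 3 lists included 21 clustered ones (exact 95% interval 13.5 to 30.3%), and the best 300 included 61 (20.3%, interval 15.9 to 25.3%). Of all 1072 kept regions in all 3 lists, 186 (17.4%) were clustered, a share that lies within both intervals. Cut into 5 equal classes by the rank in replicate 1, the share of kept regions that were clustered was 14.1, 12.2, 13.8, 16.1 and 17.1% from the weakest to the strongest class. In replicate 2 the classes held 12.4, 15.3, 13.6, 15.5 and 16.3%. Clustered regions thus occurred at every strength, with the highest share in the strongest class of both lists.

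The members of a pair differed in rank by varying amounts. Sorted by strength, which itself sets them apart, in replicate 1 the median percentile rank was 91.0 for the stronger and 71.6 for the weaker of 2 neighbours, over 595 pairs. The median difference within a pair was 14.0 points in replicate 1, 19.6 points over 589 pairs in replicate 2 and 22.4 points over 30 pairs in replicate 3. The difference was over 20 points in 225 pairs (37.8%) of replicate 1 and 293 pairs (49.7%) of replicate 2. Of the 324 pairs of replicate 1 with a region in the strongest decile, 78 had both neighbours there and 36 had the other neighbour among the weaker 50% of the list.

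**Figure D3:**
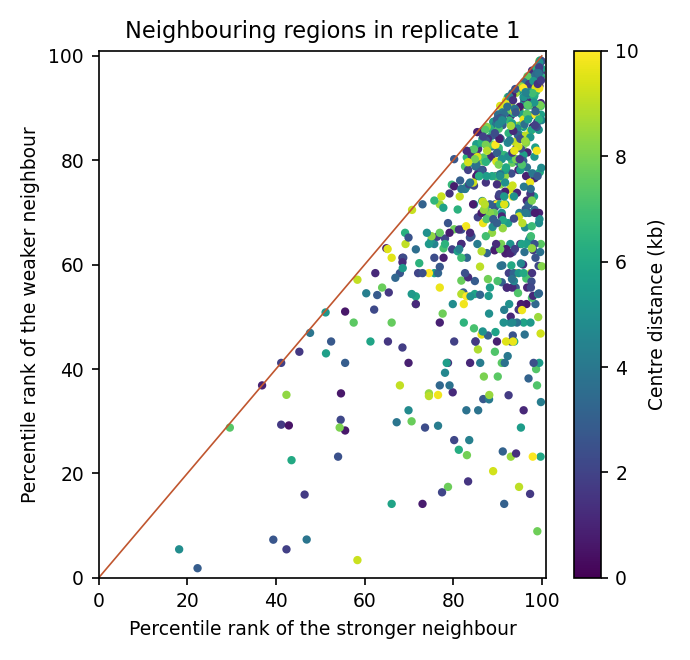
Each point is a pair of neighbouring clustered regions in replicate 1, with the percentile rank of the stronger on the x axis and of the weaker on the y axis, coloured by centre distance in kb; the line marks equal ranks. Most points lie far to the right, with the weaker neighbour spread from the top of the axis to near its foot at every distance.

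The rank of a region said little about the rank of its neighbour. Across pairs, which share libraries and at times a member, Spearman's rho between the left and the right neighbour was 0.08 in replicate 1 and 0.11 in replicate 2. In replicate 3 it was 0.40 over only 30 pairs. By distance, rho in replicate 1 was 0.18 for the 121 pairs up to 2000 bp apart, 0.03 for the 192 pairs from there to 5000 bp and 0.07 for the 283 pairs farther apart. The median difference in percentile rank was 15.3, 15.8 and 12.9 points in the same order, so this difference was not smaller at shorter distances.

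Which member was the stronger one was mostly the same in independent samplings. In 538 clusters at least 2 members had a peak in both replicates 1 and 2, and in 434 of them (80.7%, exact 95% interval 77.1 to 83.9%) the same member had the highest score in both. For replicates 1 and 3 it was the same in 21 of 25 clusters (84.0%, interval 63.9 to 95.5%), and for replicates 2 and 3 in 20 of 24 (83.3%, interval 62.6 to 95.3%). In 496 of the 538 clusters exactly 2 such members were compared, where unrelated orders would agree in about 1 of 2 cases. Among these clusters, the agreement between replicates 1 and 2 went with the difference in rank. It was 71 of 106 (67.0%) where the members differed by under 5 percentile points in replicate 1, 153 of 194 (78.9%) from 5 to under 20 points, and 178 of 196 (90.8%) at 20 points or more.

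**Figure D4:**
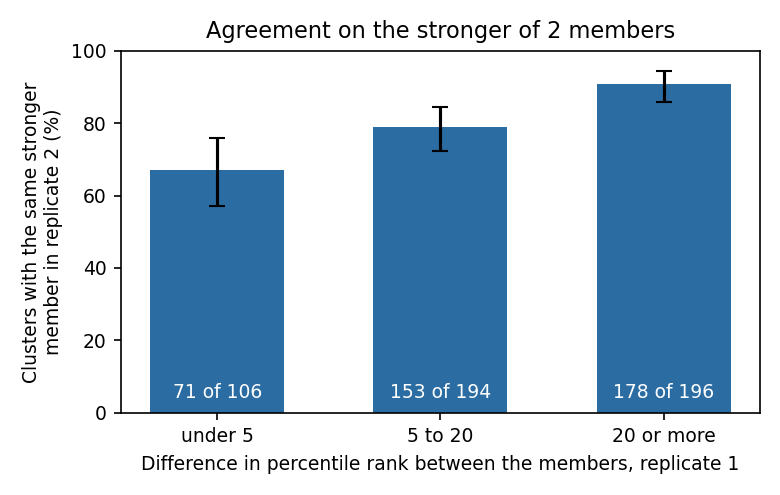
Percent of clusters in which replicate 2 gave the higher score to the same member as replicate 1 (y axis), for clusters with 2 members present in both lists, by the difference in percentile rank between the members in replicate 1 (x axis). Bars are shares with exact 95% intervals and numbers in the bars are counts; the shares are 67.0, 78.9 and 90.8%.

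Most clusters had no peak in the short list of replicate 3, and where exactly 1 member had one, it was mostly the strongest. No member had a replicate 3 peak in 381 clusters (70.0%), 1 member had one in 138 clusters (25.4%), and 25 clusters had 2 or more such members. In the clusters with exactly 1, it was the strongest member by replicate 1 in 120 of 137 (87.6%, exact 95% interval 80.9 to 92.6%) and by replicate 2 in 122 of 134 (91.0%, interval 84.9 to 95.3%). Presence in all 3 lists also went together between neighbours. Both neighbours had a peak in all 3 lists in 27 of 596 pairs (4.53%), 1 of them in 143 (24.0%) and neither in 426 (71.5%). A region in all 3 lists therefore had a neighbour in all 3 lists in 27.4% of cases, and a region in only 2 lists in 14.4%.

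Merged regions found in only 1 list were more frequent near clustered than near isolated regions. They come from the same peak lists, and clustered regions were chosen for close neighbours there, so this is no separate support. A merged region with a peak in 1 list only lay within 10 kb of 312 of the 1140 clustered regions (27.4%, exact 95% interval 24.8 to 30.1%). The same held for 20.6% (19.6 to 21.6%) of the isolated regions and 21.6% of all kept regions. Taken apart, chromosomes 6 and 15 gave 34.8% against 28.9%, and the other autosomes gave 25.8% against 19.3%. The clustered share was the higher one in both sets of chromosomes, and no test was made. Chromosomes 6 and 15 held 4.21 and 4.68 kept regions per Mb, of which 18.7% and 17.8% were clustered. Chromosomes 11 and 19 held 4.66 and 5.25 per Mb, of which 17.4% and 19.1% were clustered. The split of chromosomes 6 and 15 from the others is only a description, and no reason for it was tested. Farther out, another kept region lay between 10 and 100 kb away from 799 clustered regions (70.1%), beside 61.1% of the isolated and 62.4% of all kept regions. Neighbouring clusters were themselves mostly far apart, with a median gap of 1.94e+06 bp, and 36 of 525 gaps between consecutive clusters were at most 100 kb.

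Clusters were found on every autosome, from 8 on chromosome 14 to 55 on chromosome 6. The share of kept regions that were clustered was highest on chromosome 19 (58 of 304, 19.1%, exact 95% interval 14.8 to 24.0%) and chromosome 6 (115 of 614, 18.7%, interval 15.7 to 22.0%). It was lowest on chromosome 9 (32 of 418, 7.66%, interval 5.30 to 10.6%) and chromosome 14 (17 of 212, 8.02%, interval 4.74 to 12.5%). The median chromosome had 14.3%. Across the 19 autosomes the share was higher where kept regions per Mb were more numerous, with Spearman's rho of 0.51, a description over chromosomes in which both quantities come from the same positions. Chromosome 9 was set apart from this: it held 3.47 kept regions per Mb, close to chromosome 17 with 3.54, where 17.8% were clustered. With the same split as above, clustered regions on chromosomes 6 and 15 had a peak in all 3 lists in 14.6% of cases and those on the other autosomes in 16.7%.

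The 3 dropped windows differed from the clusters in rank. They held 47 regions on chromosomes 11 (22 regions), 9 (13 regions) and 8 (12 regions). The median of the mean percentile rank, over the lists that held a region, was 37.3, 60.2 and 24.1 in that order. For the clustered regions of the same chromosomes it was 76.1, 85.1 and 71.1. On chromosome 9, 11 of the 13 had a peak in all 3 lists. The density of these windows was set by the rule. The regions on chromosomes 11 and 8 were mostly weak, while those on chromosome 9 ranked higher.

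In the 8 clusters with the best region in all 3 lists, the partner of a very strong site ranged from nearly as strong to weak. On chromosome 19 the region at chr19:4045758-4046573 ranked 6, 5 and 4 in replicates 1, 2 and 3, with scores of 546, 386 and 192. Its partner at chr19:4037875-4038156, 8150 bp away by centres, ranked 9345 and 7686 in replicates 1 and 2 and had no peak in replicate 3. This cluster therefore joined a site at the top of every list to one with percentile ranks of 59.7 and 34.8 in replicates 1 and 2. On chromosome 9 the region at chr9:77598041-77599069 ranked 45, 29 and 8, and its partner 5690 bp to the left ranked 2580 and 4885 with no peak in replicate 3. On chromosome 19 the region at chr19:10052548-10053481 ranked 29, 40 and 39, and its partner 4829 bp to the right ranked 4971 and 4885, again with no replicate 3 peak. In these 3 clusters the short list of replicate 3 held the strong member alone.

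Partners that were strong in their own right stood in the other clusters of this group. On chromosome 11 the region at chr11:50025496-50026887 ranked 22, 9 and 18, and its neighbour at chr11:50024035-50024870 ranked 230, 182 and 115. Their centres lay 1739 bp apart with 625 bp between the edges, the shortest distance among these 8 clusters. On chromosome 8 the region at chr8:77613211-77613916 ranked 84, 79 and 30 and its neighbour at chr8:77607597-77608190 ranked 200, 96 and 82, with 5670 bp between centres. Both members of these clusters lay in the strongest decile of each list.

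The order of strength was the same in every list that held both members at each cluster of 2 among these 8. This includes 2 further ones, on chromosomes 11 and 6. At chr11:76290696-76291424 the ranks were 23, 23 and 45, and the neighbour 2412 bp to the right had ranks of 235, 301 and 530. At chr6:127947094-127947865 the ranks were 18, 22 and 16, and the neighbour 5674 bp to the left had ranks of 560 and 1334 with no replicate 3 peak. The last of the 8, also on chromosome 11, had 3 members, with a weak one in between. Its first region, chr11:75196723-75197595, ranked 66, 24 and 33 and its last, chr11:75212704-75213397, ranked 475 and 817. The region between them ranked 17748 and 7169, so the chain of 16675 bp rested on a peak with a percentile rank of 23.2 in replicate 1.

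**Figure D5:**
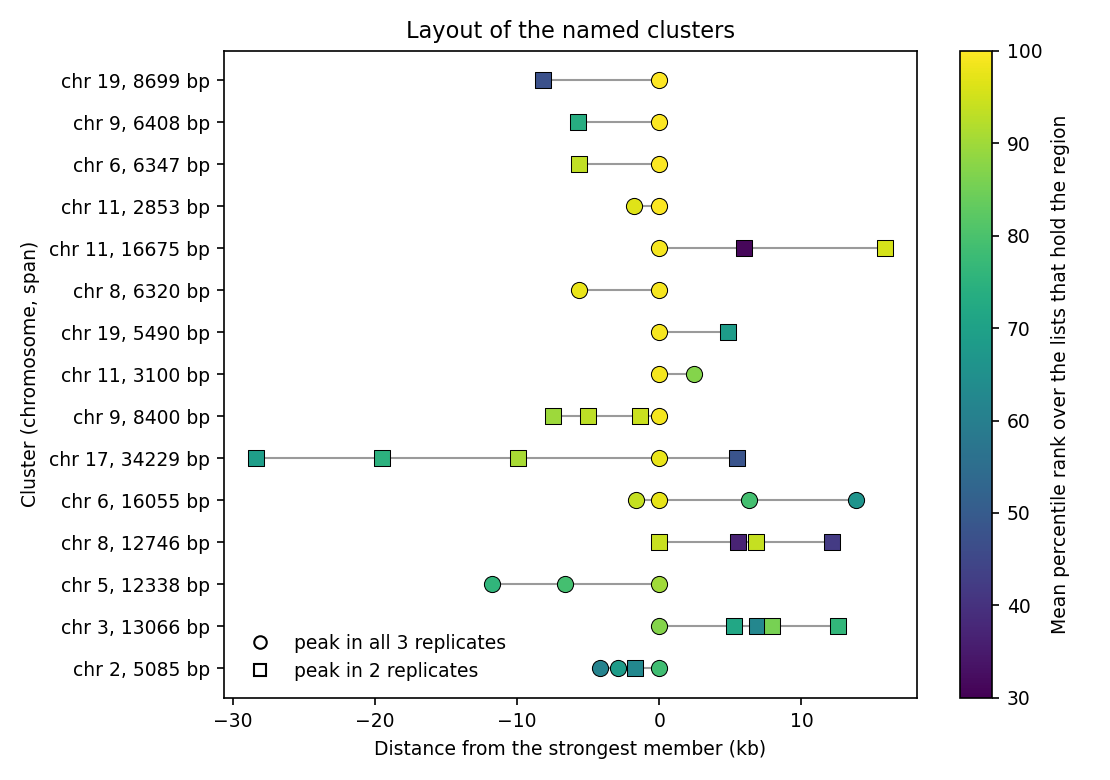
Each row is a named cluster, labelled by chromosome and span in bp, with its members placed by distance from the strongest one in kb (x axis) and coloured by mean percentile rank over the lists that hold them. Circles are regions with a peak in all 3 replicates and squares are regions with a peak in 2; the cluster of 34229 bp on chromosome 17 is the widest and that of 2853 bp on chromosome 11 the narrowest.

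The 5 named clusters with the most members differed in how strong and how tight they were. The cluster of 5 regions on chromosome 17 was the widest of all, with 34229 bp, and held 1 region that was strong in every list. That region, chr17:71097137-71098269, ranked 136, 78 and 90, and the other 4 had no replicate 3 peak and ranked between 1441 and 13365 in replicate 1. The cluster of 5 on chromosome 3 likewise had 1 region in all 3 lists, chr3:151777665-151778215, which ranked 386, 537 and 489. Its other 4 regions, from 5248 to 12589 bp to the right, ranked between 3113 and 6442 in replicate 1 and between 1830 and 7169 in replicate 2. The cluster of 4 on chromosome 8 alternated. Its first region and the third, chr8:113326853-113327579 and chr8:113333740-113334347, ranked 819 and 1119 in replicate 1 and 1011 and 870 in replicate 2. The second and the fourth ranked 8194 and 5000 in replicate 1 and 10730 and 11292 in replicate 2, and none of the 4 had a replicate 3 peak.

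A cluster of 4 on chromosome 2 was compact, and 3 of its members had a peak in all 3 lists. Whether the input DNA also gave a high signal there was not tested. Its regions lay within 5085 bp, from chr2:98502403-98503093 to chr2:98506403-98507487, with 1200 to 1713 bp between neighbouring centres. The last was the strongest, with ranks of 2047, 2377 and 534. In replicate 1 the 4 regions ranked between 2047 and 5215, and 3 of them had a replicate 3 peak, at ranks of 534 to 869. Their mean percentile ranks, 61.2 to 78.6, were below those of the best region of each other named cluster. The median for all clustered regions of chromosome 2 was 74.3, which lies within this range.

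A cluster of 4 on chromosome 9 stood apart because its lists disagreed. Its region chr9:21042804-21043553 had a peak in all 3 replicates, with ranks of 54, 110 and 38. The other 3, at chr9:21035154-21036321, chr9:21037832-21038519 and chr9:21041512-21042155, ranked 62, 21 and 31 in replicate 3. In replicate 1 the same 3 ranked 3744, 2905 and 2076, and replicate 2 had no peak in any of them. Of the 29 kept regions with peaks in replicates 1 and 3 but not 2, 4 belonged to the top decile of replicate 3, a share near the 13.5% of all kept regions with a replicate 3 peak, and 3 of these 4 were in this cluster. The other was an isolated region, chr17:4626169-4626596, with rank 3 in replicate 3 and 2006 in replicate 1. Without replicate 3, only 1 region of this cluster would have been kept.

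The clusters with the most members in all 3 lists were this compact one on chromosome 2 and one each on chromosomes 6 and 5. On chromosome 6, 4 regions spread over 16055 bp all had a peak in every list. Their scores were 96.8, 310, 84.7 and 72.2 in replicate 1, 70.0, 170, 65.1 and 28.9 in replicate 2, and 32.9, 45.8, 8.88 and 3.72 in replicate 3, from left to right. The second, chr6:87818774-87819460, was the strongest and the last the weakest in each replicate. On chromosome 5, 3 regions over 12338 bp had scores of 99.9, 76.8 and 209 in replicate 1, 50.4, 49.2 and 146 in replicate 2 and 7.05, 9.34 and 15.8 in replicate 3. The last, chr5:136433394-136433991, led in every list with ranks of 139, 110 and 426, while the order of the other two was reversed in replicate 3.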

How the data were processed

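The peak lists deposited by the authors are separate for each Nrf1 ChIP library. The submitters' processing notes name mm9 as the build and, as tools, bedtools 2.17.0, MACS2 2.0.10, SAMtools 0.1.18 and BWA 0.6.2-r126, without roles or parameters. Each peak carries a deposited score on a −log10 scale, whether from p or from q is not given; the smallest were 1.31, 1.30 and 1.33, where −log10 of 0.05 is 1.30. It depends on depth and was used only to rank peaks within a list, as percentile ranks with ties averaged; each list contributed the best peak of a region. A rank of 1 is the strongest peak.

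Peaks were merged, filtered and chained in Python 3.11.15 with numpy 2.4.6, pandas 2.3.3 and scipy 1.17.1, and figures used matplotlib 3.10.9. The merging and chaining were tested on simulated data. Regions were placed in 100 kb windows by their centre. A tie for the highest score counted as disagreement on the stronger member. The replicates are separate samplings, and the spread is that between lists. All comparisons are descriptions, since the peak calls chose the members. Members and lists were chosen with earlier results of these data known. Named clusters were those with the most regions (5, ties by shorter span), the best region in all 3 lists (8) and the most members in all 3 lists (3). Since the available gene coordinates belong to GRCm38, the planned start-site, gene-list, motif and base-composition results were not made.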

Additional observations from a re-analysis of the deposited data

How the results depend on the processing

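Of 68 recomputed values 49 stayed within their interval, within 1 SD or, for counts, within 1.5 times. None changed sign. The numbers of clustered regions and clusters followed the distance and the lists. They were 607 and 294 with a limit of 5 kb, 1911 and 872 with 20 kb, 611 and 291 from each list's stronger 50%, and 57 and 26 with regions in all 3 lists, where fewer regions entered. Leaving out a replicate gave 62 to 1126 regions and 28 to 538 clusters. The median spacing was 2436 bp with 5 kb and 8533 bp with 20 kb, as the limit itself sets it. The difference in percentile rank, clustered minus isolated, was 0.984 with regions in all 3 lists and 1.88 with no window dropped. It was 1.12 to 2.93 when a replicate was left out. Its range of 1 SD went from -1.271 to 4.694 without replicate 2 and from -1.075 to 8.638 with a limit of 5 kb. Such ranges reach below zero, so the sign of the mean does not show that every list agreed. The cause was not tested. Agreement on the leading member was 75.9% to 82.1% with a replicate left out, over 28 or 29 clusters where replicate 2 or 1 was missing. The share in all 3 lists cannot be given for the alternatives that fix it. Joining regions with an edge gap under 500 bp left 1074 regions in 514 clusters. No paired analysis was possible because no result comes from a test and the inputs are not analysed here. Start-site, gene-list, motif and base-composition alternatives were not run. What read depth limits cannot be given without read totals.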
